A study of Homo sapiens
Mus musculus and Homo sapiens with 21 samples.

Results

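The host RNA of subcutaneous tumours was set against the host RNA of brain that carried metastases of the same human cancer cells. The cells were H2030-BrM3, a brain-seeking derivative of a human lung adenocarcinoma line, so a read assigned to a mouse gene reported on the host and a read assigned to a human gene on the cancer. The comparison used 10 of the 21 libraries: 4 of subcutaneous tumour, 3 of forebrain with tumours and 3 of hindbrain with tumours. All hosts were athymic nu/nu mice, which lack a working thymus and most T cells, and they were injected at an age of 5 to 6 weeks. Subcutaneous tumours grew from cells placed under the skin in a mixture with 50% growth factor-reduced Matrigel, a basement membrane extract; brain tumours grew from cells injected into the heart. Both kinds were cut out by hand together with the tissue around them and frozen. Tumour-free forebrain and hindbrain of the same strain, 4 libraries each, gave the background of the brain values. Which libraries came from the same animal was not given in the labels, so p-values measure the spread between these samples.

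The 2 sites differ in what a tumour meets. Skin and the tissue under it hold fibroblasts that lay down collagen, leaky capillaries, and macrophages renewed from blood monocytes. Brain holds neurons and glia in a matrix with little fibrillar collagen, capillaries sealed by the blood-brain barrier, and resident macrophages called microglia that settle before birth. Because the tissue was taken in bulk, fewer cells of a type and less RNA per cell cannot be told apart in any value below.

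Values are RPKM (reads per kilobase of gene and per 1000000 reads) of mouse genes, rescaled to a sum of 1000000 in each library, so a level is a share of the mouse RNA in that library. Subcutaneous tumours held 2446513 to 3982107 mouse reads per library, and brain with tumours 52358082 to 86139353. At the rate seen in the cells grown alone, human RNA would account for 0.343% of the mouse reads of subcutaneous tumours and 0.00233% of those of brain. Genes with at least 10% of their reads expected from human RNA on either side were left out of the tests; these were 766 of 33043 genes, and 16358 genes were tested. Log2 differences are subcutaneous tumour minus the mean of the 2 brain regions on log2(value + 1), with the standard error from limma, and folds are taken from them, which understates the change of low genes. A gene was tested if it read at least 1 in at least 3 of the 10 libraries. One that stayed below 1 in every library of a site could pass only through the other site. Its direction was then fixed in advance, and such genes are part of the list counts below. A gene was called at a Benjamini-Hochberg adjusted p under 0.05. Means are given ± SD, with n = 4 for subcutaneous tumours and n = 6 for brain, where the SD also holds the difference between the regions. The fit treated the 6 brain libraries as independent. Forebrain and hindbrain libraries of the same number deviated together, however (correlations of 0.24 to 0.45), so the standard errors and p-values leave out a possible pairing.

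The subcutaneous libraries were not alike. Replicate 3 was rich in blood: haemoglobin genes made up 19.4% of its mouse RNA, against 1.95 to 4.52% in the other 3 and at most 0.0289% in any brain library. It also held almost no keratinocyte RNA. Its 9 keratinocyte genes summed to 5.2, against 3751, 4867 and 5661 in replicates 1, 2 and 4 and 8.04 to 13.1 in brain. Replicate 1 held traces of neuronal RNA and replicate 2 had the most natural killer cell RNA, as given below. Brain libraries held more mitochondrially encoded RNA, 5.27 to 6.9% against 1.21 to 1.88%.

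Most genes differed between the sites. Of the genes tested, 80.3% were called, 34.3% higher and 46.0% lower in subcutaneous tumours, and 11.8% were at least 4-fold higher and 13.2% at least 4-fold lower. The groups did not overlap, with all subcutaneous libraries above all brain libraries, for 26.4% of genes, and the reverse held for 38.5%. A fit to read counts recovered from the values (limma-voom) turned the balance, with 6781 genes higher and 6132 lower. The median difference over all genes tested was -0.23, and 0.07 in that fit. The counts below are to be read against these shares. The counts without replicate 3 were 6271 genes higher and 7427 lower, against 5605 and 7524 with it. The genes of largest difference came from different cell types at the 2 sites. Higher were the collagens Col3a1 (9.94 ± 0.28) and Col1a1 (8.88 ± 0.27), the globins Hba-a2, Hba-a1, Hbb-bt and Hbb-bs (8.68 ± 0.66 to 9.25 ± 0.84), the platelet and macrophage chemokine Pf4 (8.42 ± 0.23), the matrix protein Postn (8.42 ± 0.15), the chemokine Ccl8 (8.21 ± 0.21) and Wfdc17 (8.18 ± 0.13), a small secreted protein. Lower were, among others, genes of synaptic signalling and excitability, Scn8a (a sodium channel, -7.95 ± 0.31), Grin2b (a glutamate receptor subunit, -7.93 ± 0.22) and Unc80 (-7.81 ± 0.46), as well as St8sia3, Stmn3, Trank1, Calb1 and Dock3 (-7.85 to -7.37). Lack of overlap between the groups was part of the rule that chose these genes.

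**Figure D1:**
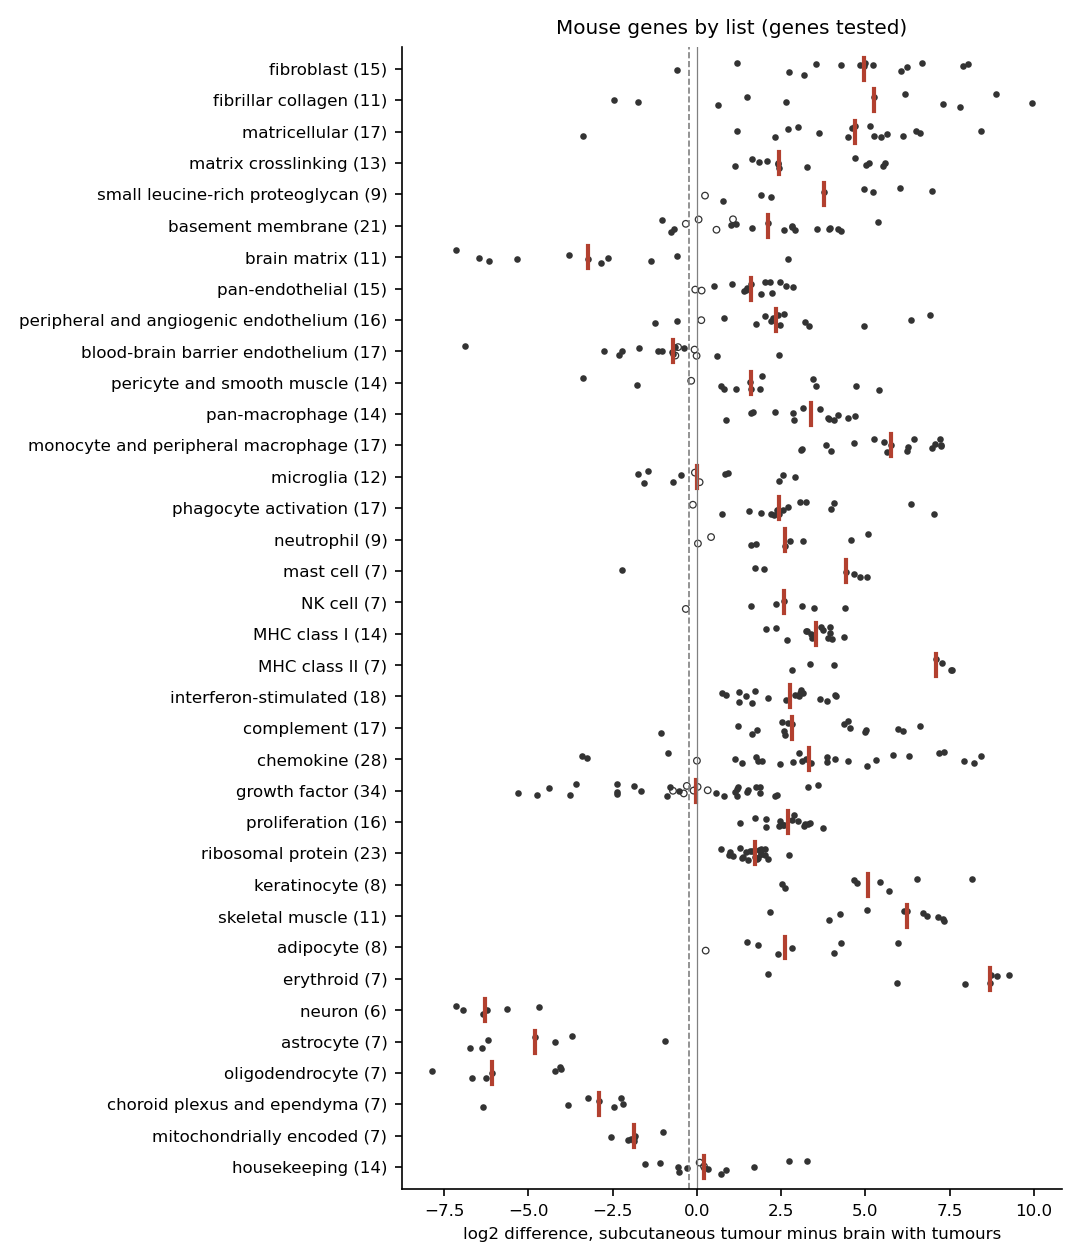
Log2 difference (subcutaneous tumour minus brain with tumours, horizontal axis) of every tested gene of the lists named at the left. Each point is 1 gene, filled where it was called and open where it was not; the red bar is the median of the list, the dashed line the median of all genes tested (-0.23), and the number of genes tested stands beside each name. Collagen, fibroblast, monocyte and MHC class II genes lie far to the right, brain cell genes far to the left, and microglia and growth factor genes on both sides of 0.

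Fibroblast genes and the fibrillar collagens held several of the largest differences. Of 15 fibroblast genes tested, 14 were higher in subcutaneous tumours and 1 was lower, 13 were at least 4-fold higher, and the median difference was 4.97. Col1a1, the main chain of type I collagen, read 19800, 17232, 20008 and 35864 in the 4 subcutaneous libraries and 24.4 to 72.7 (median 46) in brain. The lowest subcutaneous library therefore stood far above the highest brain library (adjusted p = 1.00e-09). Col3a1, its partner in soft tissue, had means of 20361 ± 7346 and 21.8 ± 13. The 11 fibrillar collagens as a whole took 3.68 to 7.53% of the mouse RNA of subcutaneous tumours and 0.00827 to 0.0187% of that of brain. Of these 11 genes, 9 were higher and 2 lower. The lower ones were the cartilage-type chains Col11a2 (2.24 ± 0.227 against 17.1 ± 3.09; log2 -2.47 ± 0.13) and Col2a1, which had no read in any subcutaneous library and a mean of 3.48 ± 3.84 in brain, at least 9.55-fold higher there when the subcutaneous libraries are set at a floor of 3 reads. In tumour-free brain Col1a1 averaged 34.8 in forebrain and 71.7 in hindbrain.

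Other fibroblast genes followed the collagens. Mfap5, an elastic fibre protein, read 444, 399, 312 and 594, against 0.261 to 1.21 (median 0.577) in brain (log2 8.05 ± 0.16). Dpt, a collagen-binding protein, had a mean of 268 ± 100.2 against 0.0899 ± 0.042, and Pi16, a marker of adventitial fibroblasts, 201 ± 36.8 against 0.991 ± 0.461. Pdgfra differed less. This growth factor receptor marks fibroblasts in skin but oligodendrocyte precursors in brain. It read 143, 162, 126 and 169.5 in subcutaneous tumours and 50.7 to 79.5 (median 63.2) in brain, 2.3-fold higher (adjusted p = 1.23e-06). Thy1, which fibroblasts and neurons share, was the 1 gene of the list that was lower (281 ± 23.3 against 421 ± 41.9, log2 -0.58 ± 0.09, adjusted p = 1.51e-04).

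Matricellular proteins, which bind matrix and steer cells more than they hold tissue together, were higher in 16 of 17 tested and lower in 1. Postn read 1190, 959, 1346 and 1604 in subcutaneous tumours and 1.64 to 3.58 (median 3) in brain, with no overlap (log2 8.42 ± 0.15, adjusted p = 6.23e-11). Tnc, typical of wounds and tumours, had means of 235 ± 56.4 and 2.55 ± 1.26; Thbs1, an inhibitor of vessel growth, 359 ± 131 and 2.62 ± 1.11; and fibronectin, Fn1, 2210 ± 347 and 49.4 ± 10.9. Spp1 (osteopontin) differed by region in brain: it averaged 17.3 in forebrain and 102 in hindbrain with tumours, against 286 ± 74.8 in subcutaneous tumours. Its difference between the regions was 2.50 on the log2 scale (adjusted p = 6.65e-05). The 1 lower gene was Vtn, vitronectin, which brain pericytes make: 7.49, 2.32, 3.69 and 9.23 in subcutaneous tumours and 46.2 to 75.2 (median 65.7) in brain (log2 -3.38 ± 0.30).

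Small leucine-rich proteoglycans, which space collagen fibrils, were higher in 8 of 9 tested. Bgn (biglycan) had means of 2016 ± 209 and 15.6 ± 5.37, Dcn (decorin) 545 ± 186 and 19.5 ± 13.4, and Lum (lumican) 139 ± 59.4 and 2.83 ± 1.68. Decorin averaged 19.3 in forebrain and 26.1 in hindbrain without tumours. The 1 gene not called was Omd (1.69 ± 0.504 against 1.29 ± 0.527, log2 0.24 ± 0.17, 95% interval -0.13 to 0.62). All 13 genes of matrix crosslinking were higher, 10 of them at least 4-fold, among them the lysyl oxidases Lox (log2 5.57 ± 0.15), Loxl1 (5.51 ± 0.11) and Loxl3 (5.11 ± 0.10).

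Basement membrane was less one-sided. Of 21 genes tested, 14 were higher, 3 lower and 4 not called, with a median of 2.11. Col4a1, the common chain of vascular basement membrane, read 2281, 2594, 3303 and 2344 in subcutaneous tumours and 109 to 218 (median 137) in brain (log2 4.18 ± 0.15). Brain with tumours exceeded its tumour-free level of 49.5 in forebrain and 51.7 in hindbrain. Col15a1 (563 ± 22.9 against 12.7 ± 2.03) and nidogen, Nid1 (127 ± 14.7 against 6.12 ± 2.77), had no overlap either. Agrin, Agrn, a heparan sulphate proteoglycan of synapses and vessels, was lower (16.1 ± 2.35 against 27 ± 7.78, log2 -0.68 ± 0.11), with overlapping groups. Lamb3, a chain of the laminin under the epidermis, was 12.9, 14.4, 0.829 and 21.7 in the 4 subcutaneous libraries and was not called; the library with almost no keratinocyte RNA was the lowest. Among the other collagens 14 of 20 were higher and 5 lower: Col6a3, Col12a1 and Col14a1 differed by 7.51 ± 0.13, 6.34 ± 0.12 and 6.07 ± 0.14, while the minor chains Col9a2 and Col9a3 were lower (-4.30 ± 0.18 and -3.70 ± 0.26).

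The brain's own matrix moved the other way. It is built of hyaluronan, chondroitin sulphate proteoglycans and the tenascin Tnr, which together form the nets around neurons. Of 11 of its genes tested, 10 were lower and 1 higher. Tnr read 2.75, 0.721, 0.509 and 1.04 in subcutaneous tumours and 193 to 432 (median 291) in brain (log2 -7.14 ± 0.23), and Ptprz1, a receptor-type proteoglycan of glia, 1.62, 0.443, 0.521 and 0.284 and 119.9 to 158 (median 147) (log2 -6.46 ± 0.19). Vcan, versican, which skin also makes, was the 1 higher gene: 191 ± 34 against 28.5 ± 4.62 (log2 2.70 ± 0.14). Another 4 genes of this list, Bcan, Ncan, Hapln4 and Cspg5, were left out for human reads.

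Enzymes that cut the matrix and their inhibitors each split by member. Of 15 metalloproteinases tested, 11 were higher, all of them at least 4-fold, and 3 were lower. Mmp3 (stromelysin) read 148, 111, 87.5 and 128 in subcutaneous tumours and 0 to 0.183 (median 0.0861) in brain; Mmp13 (a collagenase) had means of 111 ± 34.7 and 0.0411 ± 0.0285; and Mmp9 (a gelatinase of neutrophils and macrophages) read 839, 185, 756 and 456 and 1.8 to 6.06 (median 3.47). Their log2 differences were 6.75 ± 0.14, 6.69 ± 0.19 and 6.79 ± 0.37. The lower members were all anchored to the membrane: Mmp15 (-1.59 ± 0.09), Mmp16 (-2.77 ± 0.13) and Mmp17 (-3.50 ± 0.22). Mmp17 averaged 65 in forebrain and 14.6 in hindbrain with tumours.

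The 4 Timp genes, which inhibit these enzymes, each had a pattern of its own. Timp1, the inducible one, read 279, 279, 209.7 and 235 in subcutaneous tumours and 1.53 to 7.24 (median 3.29) in brain with tumours (log2 5.80 ± 0.15, adjusted p = 3.08e-10). The brain values stood above the tumour-free means of 0.245 in forebrain and 1.05 in hindbrain. Timp2 was 1.83-fold higher (389.7 ± 74.3 against 211 ± 21.2). Timp3 read 161, 158, 119 and 179 against 91.4 to 152 (median 138) and was not called (log2 0.23 ± 0.13, 95% interval -0.07 to 0.52). Its call depended on the scaling. It was called higher without replicate 3 (0.35), without haemoglobin genes (0.34), with median-of-ratios scaling (0.36), with quantile normalization (0.34) and with voom (0.50). Timp4, the form most typical of brain, was lower: 1.43, 0.843, 0 and 2.16 in subcutaneous tumours, 12.1, 12 and 9.4 in forebrain and 43.5, 43.4 and 41.9 in hindbrain (log2 -3.57 ± 0.27). In the plasmin system, which dissolves fibrin, 6 of 7 genes tested were higher and 1 lower. Higher members included the inhibitor Serpinb2 (log2 4.72 ± 0.40) and the urokinase receptor Plaur (4.76 ± 0.27); Plaur was highest and Serpinb2 lowest in the blood-rich replicate 3.

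**Figure D2:**
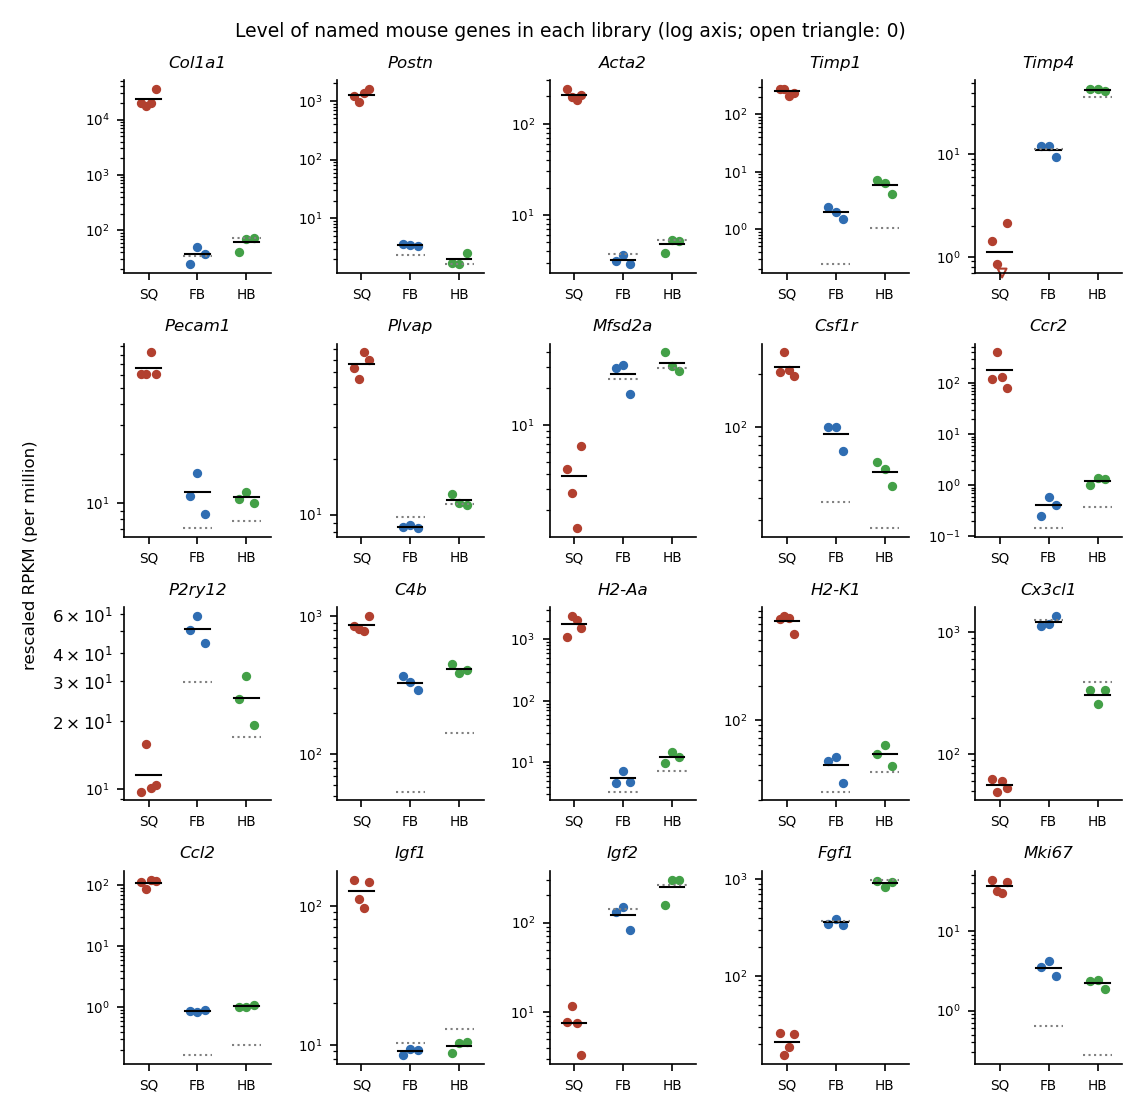
Rescaled RPKM (vertical axis, log scale, its range set for each gene) of 20 mouse genes in each library: subcutaneous tumours (SQ, 4, red), forebrain with tumours (FB, 3, blue) and hindbrain with tumours (HB, 3, green). Bars are means, dotted lines the mean of tumour-free tissue of that region, and an open triangle a value of 0. Timp4, Mfsd2a, P2ry12, Cx3cl1, Igf2 and Fgf1 are lower in the subcutaneous libraries, and the other 14 are higher.

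Most genes shared by all endothelium were higher in subcutaneous tumours. Of these 15 genes, 13 were higher, 2 were not called and the median was 1.59. Pecam1 (CD31) read 60.8, 61.1, 82.8 and 60.9 in subcutaneous tumours and 8.63 to 15.2 (median 10.9) in brain (log2 2.46 ± 0.15, adjusted p = 1.20e-07). The junction protein Cdh5 had means of 86.1 ± 13.1 and 11.2 ± 1.62, and the VEGF receptor Kdr 24.4 ± 4.46 and 5.84 ± 1.33. Another VEGF receptor, Flt1, did not pass: 37.6, 42, 60.2 and 40.6 against 37.1 to 61.5 (median 43.9), a log2 difference of -0.05 ± 0.17 with a 95% interval of -0.42 to 0.32. In brain, pan-endothelial genes summed to 145 to 221 with tumours and averaged 130.3 in tumour-free forebrain and 147 in tumour-free hindbrain; in subcutaneous tumours they summed to 487 to 675.

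Genes of the blood-brain barrier went against that trend. Of 17 tested, 11 were lower, 2 higher and 4 not called, with a median of -0.71. Over all genes tested 46.0% were lower and 34.3% higher. The count of lower barrier genes fell in the fit to recovered reads (limma-voom), as given at the end. Mfsd2a, the lipid transporter that keeps transcytosis low, read 4.33, 2.77, 1.43 and 6.8 in subcutaneous tumours and 17.9 to 39.6 (median 30.0) in brain (log2 -2.75 ± 0.30, adjusted p = 1.33e-05). The drug pump Abcb1a read 5.4, 4.53, 6.93 and 6.36 and 17.4 to 24.8 (median 20.9) (log2 -1.71 ± 0.14). Cldn5, the tight junction protein, and Slc2a1, the glucose carrier, were called lower by small amounts (-0.66 ± 0.21 and -0.37 ± 0.10), and their groups overlapped. Both missed the threshold with median-of-ratios scaling (-0.53 and -0.24) and with voom (-0.45 and -0.13). Cldn5 also missed it with quantile normalization (-0.53) and library weights (-0.72), and Slc2a1 without haemoglobin genes (-0.26). Spock2, a proteoglycan that neurons make too, had the largest difference of the list (-6.88 ± 0.21). The 2 higher genes were the junction protein Lsr (2.44 ± 0.14), which epithelia share, and the pump Abcg2 (0.59 ± 0.12). Of 16 genes of peripheral or sprouting endothelium, 13 were higher. Fabp4 and Cd36, fatty acid handlers of peripheral capillaries that fat cells and macrophages share, read 164, 132, 74.2 and 148 and 139, 121, 87.7 and 162, against at most 0.069 and 0.842 in brain. Gpihbp1, which holds lipoprotein lipase on capillaries, read 33.7, 26.6, 28.7 and 34.4 and at most 0.0566 in brain. Plvap, the protein of endothelial fenestrae, was 6-fold higher. Ackr1, a chemokine receptor of venules and neurons, was lower (-1.24 ± 0.11), and von Willebrand factor, Vwf, was called lower (-0.58 ± 0.21), a call lost without subcutaneous replicate 1 (-0.44) or 3 (-0.45), forebrain replicate 2 (-0.51) or hindbrain replicate 2 (-0.53).

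Because subcutaneous tumours held more endothelial RNA, each gene was also expressed as a percent of the summed level of the 15 pan-endothelial genes in its library. This is a description with no test. The sum was 3.21-fold higher in subcutaneous tumours, so the division moves every gene toward brain: of all genes tested, 68.6% lay higher in every brain library on this scale and 9.85% higher in every subcutaneous library. On that scale 17 of the 19 barrier genes lay higher in all 6 brain libraries than in all 4 subcutaneous libraries; Foxq1 overlapped and Lsr was the reverse. Mfsd2a came to 0.717 ± 0.447% in subcutaneous tumours and 17 ± 4.49% in brain, Abcb1a to 1.04 ± 0.134% and 12.3 ± 1.29%, and Cldn5 to 1.97 ± 0.495% and 10.2 ± 1.11%. Flt1 came to 8 ± 0.647% and 26.6 ± 0.92%. Of the 16 genes of peripheral or sprouting endothelium, 9 lay higher in every subcutaneous library, 3 (Apln, Ackr1 and Vwf) higher in every brain library, and 4 overlapped. Plvap came to 11.9 ± 1.24% and 6.02 ± 1.47%, and Esm1, a gene of sprouting tip cells, to 2.03 ± 0.407% and 0.131 ± 0.0893%. Slc2a1 exceeded the whole pan-endothelial sum in brain (131 ± 19.7%) but not in subcutaneous tumours (31.3 ± 5.14%); astrocytes make it too. In tumour-free brain Mfsd2a averaged 18.3% in forebrain and 21% in hindbrain.

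Mural cells, which wrap vessels, and smooth muscle were higher in 11 of 14 genes tested and lower in 2. Acta2, smooth muscle actin, which activated fibroblasts also make, read 242, 196, 183 and 208 in subcutaneous tumours and 2.88 to 5.33 (median 3.74) in brain (log2 5.40 ± 0.11). The pericyte receptor Pdgfrb had means of 82 ± 12.8 and 6.61 ± 1.44, and Rgs5, a pericyte gene, was 1.64-fold higher with overlapping groups (119 ± 22.6 against 71.7 ± 13.8). Of 6 lymphatic endothelial genes, 5 were higher and 1 lower. Lyve1 (56.4 ± 17 against 0.674 ± 0.205), which some macrophages share, and the lymphatic chemokine Ccl21a (4.97, 63.1, 34.3 and 38.7 against at most 0.252, log2 4.54 ± 0.56 and 5.26 without replicate 1) were higher, as was the receptor Flt4 (log2 1.85 ± 0.24). The lymphatic master regulator Prox1 was lower (-2.35 ± 0.26); it is also a gene of granule neurons and oligodendrocyte precursors.

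Macrophage genes were higher throughout, but those of microglia were not. All 14 pan-macrophage genes were higher in subcutaneous tumours (median 3.39). Cd68, a lysosomal protein, read 572, 628, 556 and 537 in subcutaneous tumours and 14.1 to 28.3 (median 21.2) in brain (log2 4.68 ± 0.13), and Ptprc (CD45), of all leukocytes, 104, 206, 136 and 85.7 and 5.56 to 7.69 (median 6.58) (log2 4.06 ± 0.21). The growth factor receptor Csf1r differed less, 220.0 ± 31.9 against 73.7 ± 22.5 (1.61 ± 0.13). All 17 genes of monocytes and peripheral macrophages were higher, each at least 4-fold, with a median of 5.76. Over all genes tested 11.8% were at least 4-fold higher. Some members, such as Retnla, were near 0 in brain and passed the filter only through the subcutaneous libraries. Lyz2 (lysozyme) read 4121, 4294, 4493 and 3798 and 17.6 to 37.2 (median 27.9) (log2 7.23 ± 0.09, adjusted p = 2.61e-11). The mannose receptor Mrc1 had means of 271 ± 34.7 and 2.55 ± 0.724, and Retnla, a gene of macrophages exposed to interleukin 4, 160.4 ± 49.2 and 0.0417 ± 0.0587. Ccr2, the receptor that draws monocytes from blood, read 119, 400.3, 134 and 81.1 in subcutaneous replicates 1 to 4, highest in replicate 2, and 0.247 to 1.37 (median 0.789) in brain (log2 6.43 ± 0.37). Ccr2 in tumour-free brain averaged 0.146 in forebrain and 0.376 in hindbrain. Arginase, Arg1, read 195, 68.7, 47.9 and 70.3, highest in replicate 1, and 0.0165, 0.101 and 0.0255 in forebrain and 1.3, 1.49 and 2.07 in hindbrain with tumours.

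Of 12 microglia genes tested, 5 were higher, 5 lower and 2 not called, with a median of 0.01. Against forebrain alone 4 were higher and 5 lower (34.3% and 41.9% of all genes), and against hindbrain alone 5 were higher and 2 lower (31.1% and 45.3% of all genes). P2ry12, the purine receptor of resting microglia, was among the lower ones. It read 9.75, 15.8, 10.1 and 10.4 in subcutaneous tumours, 50.8, 58.5 and 44.4 in forebrain and 25, 31.6 and 19.2 in hindbrain (log2 -1.57 ± 0.17, adjusted p = 1.02e-05). The fructose carrier Slc2a5 (-1.74 ± 0.30) and the lectin Siglech (-1.45 ± 0.42) were also lower. Tmem119, often used to tell microglia from other macrophages, was higher: 73.5, 98.1, 71.4 and 79.8 against 24.7 to 67.7 (median 43.2) (log2 0.84 ± 0.16, adjusted p = 7.36e-04). Fcrls (2.91 ± 0.17), Olfml3 (2.55 ± 0.14) and the lipid receptor Trem2 (2.43 ± 0.17) were higher too; stromal cells share Tmem119 and Olfml3, and tumour macrophages share Trem2. Cx3cr1 and P2ry13 did not pass, with 95% intervals of -0.41 to 0.56 and -0.54 to 0.41.

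Against the summed level of the 14 pan-macrophage genes, again a description with no test, 11 of 13 microglia genes lay higher in every brain library than in every subcutaneous library, and Olfml3 and Fcrls overlapped. That sum was 8.3-fold higher in subcutaneous tumours, and 81.4% of all genes tested lay higher in every brain library on this scale, so the count of microglia genes is near the background. P2ry12 came to 0.187 ± 0.0254% of that sum in subcutaneous tumours and 5.03 ± 1.11% in brain, Cx3cr1 to 0.798 ± 0.21% and 6.26 ± 0.958%, and Tmem119 to 1.33 ± 0.177% and 6.21 ± 0.939%. Monocyte genes were the reverse in 14 of 17, with 3 overlapping, against 4.65% of all genes. Ccr2 came to 2.81 ± 1.76% and 0.127 ± 0.0938%, Lyz2 to 69.1 ± 7.48% and 4.13 ± 2.07%, and Mrc1 to 4.55 ± 1.18% and 0.369 ± 0.162%.

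**Figure D3:**
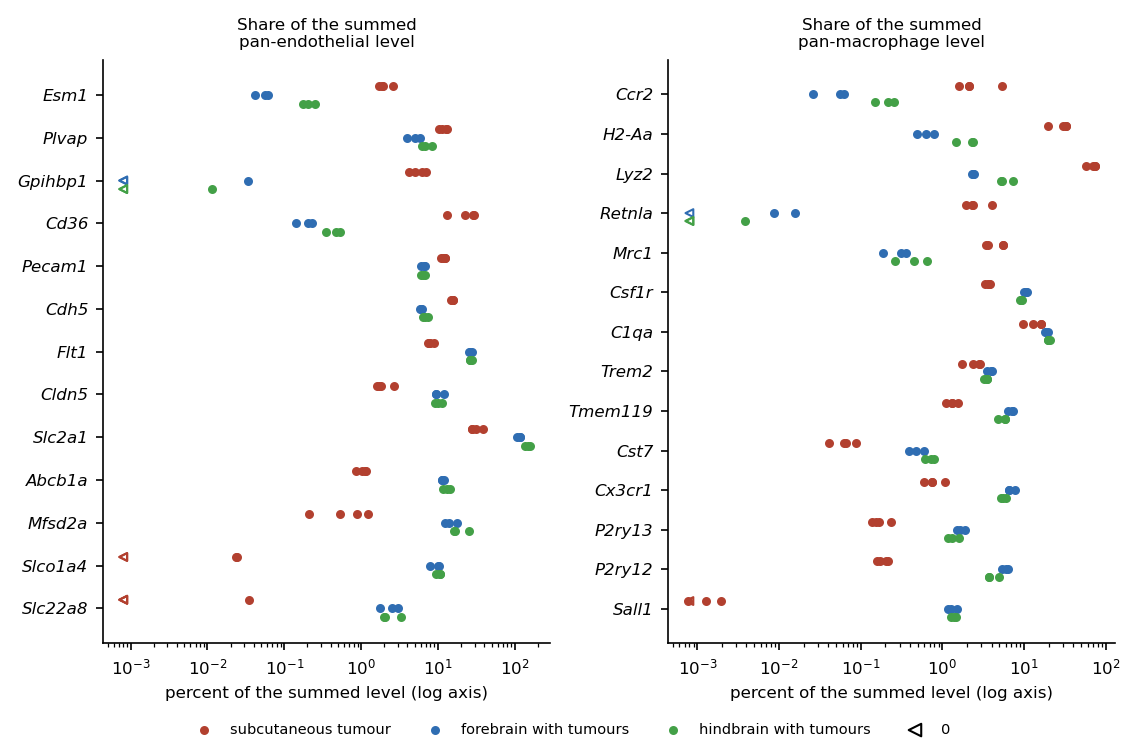
Level of single genes as a percent of the summed level of 15 pan-endothelial genes (left) or 14 pan-macrophage genes (right), on log axes, in each subcutaneous (red), forebrain (blue) and hindbrain (green) library; open triangles stand for 0. Sall1 and Slco1a4 were left out of the tests for human reads. Barrier genes such as Mfsd2a (0.211 to 1.24% against 12.3 to 25.3%) and microglia genes such as P2ry12 (0.158 to 0.214% against 3.72 to 6.38%) take a smaller share in subcutaneous tumours, and Ccr2, Lyz2 and H2-Aa a larger one.

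Genes of phagocyte activation were higher in 16 of 17 tested. The galactose lectin Lgals3 had means of 698 ± 135 and 4.66 ± 2.25, and Gpnmb, of lipid-laden macrophages, 77.8 ± 24.7 and 4.32 ± 3.25. Itgax (CD11c) read 74, 164, 108 and 95.1 in subcutaneous tumours and 4.86 to 7.32 (median 5.49) in brain with tumours, where tumour-free tissue held 0.454 in forebrain and 0.334 in hindbrain. Cst7, a protease inhibitor of activated microglia, was the 1 gene not called. It read 4.97, 4.9, 2.59 and 3.24 in subcutaneous tumours and 2.94 to 5.52 (median 4.25) in brain with tumours (log2 -0.12 ± 0.20, 95% interval -0.55 to 0.32), against 0.0358 in forebrain and 0.0658 in hindbrain in tumour-free tissue. Relative to the pan-macrophage sum it came to 0.0647 ± 0.0197% and 0.599 ± 0.15%.

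Antigen presentation was higher throughout. All 7 genes of MHC class II, which presents antigen to CD4 T cells, were at least 4-fold higher, with a median of 7.08. H2-Aa read 1087, 2410, 2095 and 1533 in subcutaneous tumours and 4.55 to 14.9 (median 8.49) in brain (log2 7.54 ± 0.23, adjusted p = 7.47e-10); the invariant chain Cd74 read 1056, 2569, 2138 and 1450 and 6.12 to 16.3 (median 10.4) (7.28 ± 0.22). Replicates 2 and 3 were the highest for both. All 14 genes of MHC class I were at least 4-fold higher. B2m, its shared light chain, had means of 1617 ± 151 and 166 ± 10.5 (log2 3.27 ± 0.08), and H2-K1 729 ± 110.2 and 44.9 ± 10.7 (4.01 ± 0.18). In tumour-free brain B2m averaged 88.2 in forebrain and 103 in hindbrain.

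All 18 interferon-stimulated genes were higher in subcutaneous tumours, 11 of them at least 4-fold. Isg15 read 37.7, 43.1, 58.1 and 31.5 in subcutaneous tumours and 2.91 to 5.45 (median 4.17) in brain with tumours (log2 3.06 ± 0.16), above tumour-free means of 0.819 in forebrain and 2.11 in hindbrain. Ifitm3 had means of 721 ± 71.6 and 41.2 ± 5.63, and Zbp1 31 ± 3.96 and 1.18 ± 0.201. Rsad2 (viperin) read 19.8, 28.1, 139 and 12.5, with replicate 3 far above the other 3 (log2 4.13 ± 0.55, and 3.43 without it). Of 17 complement genes tested, 16 were higher and 1 lower. C3, the central component, read 1692, 1638, 1835 and 1144 in subcutaneous tumours and 5.53 to 27.6 (median 20.3) in brain (log2 6.61 ± 0.23), and the protease gene C1s1 had means of 405 ± 125 and 4.7 ± 0.773. C4b differed less: 859, 806, 788 and 1007 against 293 to 453 (median 378) (log2 1.22 ± 0.10, adjusted p = 8.28e-07). Its level in brain with tumours was itself above the tumour-free means of 53.6 in forebrain and 143 in hindbrain. Cfd (adipsin), made by fat cells, had no read in any of the 6 brain libraries and read 68.3, 49.4, 24.5 and 166 in subcutaneous tumours, at least 6898-fold higher with brain set at a floor of 3 reads over the group. Masp1, of the lectin pathway, was the 1 lower gene (log2 -1.08 ± 0.24).

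Genes of other leukocytes were mostly low in subcutaneous tumours and lower still in brain. Over all genes tested 34.3% were higher and 46.0% lower. The mast cell and natural killer genes named here as higher read below 1 in every brain library. They passed the filter only through the subcutaneous libraries, so their direction was fixed in advance. Mast cell genes were higher in 6 of 7 tested. The proteases Cpa3 (19.3, 18.6, 47.5 and 35.9), Cma1 (13.7, 17.4, 38.5 and 39.5) and Mcpt4 (22.1, 20.4, 40.5 and 58.4) did not exceed 0.0505, 0.0235 and 0.0255 in any brain library. Kit, the mast cell receptor that neurons also express, was lower (13 ± 1.9 against means of 30.0 in forebrain and 138 in hindbrain). Of 9 neutrophil genes tested, 7 were higher and 2 were not called. S100a8 read 115, 120.2, 326 and 27.2 and S100a9 122, 198, 599.6 and 63.1 in subcutaneous replicates 1 to 4, highest in the blood-rich replicate 3, and 1.54 to 10.9 (median 3.38) and 1.61 to 16.1 (median 3.66) in brain (log2 4.57 ± 0.64 and 5.07 ± 0.62). The difference was 5.21 for S100a8 without replicate 4 and 4.48 for S100a9 without replicate 3. The chemokine receptor Cxcr2 followed the same order (8.75, 14, 19.1 and 2.76). The defining neutrophil gene Ly6g was below the level needed for a test. Natural killer genes were higher in 6 of 7 tested. Ncr1 read 4.67, 17.8, 2.88 and 2.55, Klrd1 9.39, 33.1, 6.58 and 7.47 and Gzma 23.6, 42.6, 22.3 and 14.6, each highest in replicate 2, and did not exceed 0.0583, 0.259 and 0.278 in brain. Dendritic cell genes were higher in 5 of 7 tested, with Cd209a at 22.5 ± 7.81 against 0.479 ± 0.108 and Clec9a at 5.34 ± 0.969 against 0.0893 ± 0.0783; Zbtb46, which endothelium shares, was called lower (-0.38 ± 0.15), a call lost when any 1 of 7 libraries was left out (subcutaneous replicates 1, 2 and 4, all 3 of forebrain and hindbrain replicate 2; -0.30 to -0.40).

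Several T and B cell genes, but not all, were near the limit of detection. The hosts lack a working thymus and most T cells, as stated above. Of 8 T cell genes, 5 were too low to test. Cd3e read 0, 0, 0.594 and 0 in subcutaneous tumours and at most 0.105 in brain. Cd4 was higher in subcutaneous tumours (44.8, 40.2, 59.5 and 53.7) than in forebrain (20.1, 24.4 and 26.9) and hindbrain (0.328, 0.134 and 0.296); macrophages and some neurons express it too. The kinase Lck (1.84 ± 0.25) was the other named T cell gene called higher. Of 7 B and plasma cell genes, 3 were too low to test; Cd79b had means of 5.13 ± 3 and 0.177 ± 0.0573 (log2 2.23 ± 0.30), and Ighm was called 1.59-fold higher with overlapping groups, a call lost when any 1 library other than subcutaneous replicate 3 was left out (log2 0.41 to 0.70).

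Chemokines, which draw leukocytes, were higher in 24 of 28 genes tested, 19 of them at least 4-fold, and lower in 3. Ccl2, the ligand of Ccr2, read 112, 86.6, 123 and 119 in subcutaneous tumours and 0.827 to 1.08 (median 0.966) in brain with tumours (log2 5.82 ± 0.11, adjusted p = 7.99e-11), where tumour-free tissue held 0.166 in forebrain and 0.242 in hindbrain. Ccl8 read 1050, 576, 721 and 817 against 0.716 to 2.87 (median 1.76), and Ccl6 had means of 1814 ± 342 and 6.46 ± 0.904. Cxcl12, which stroma of both sites makes, was 3.54-fold higher (88.6 ± 10 against 24.8 ± 5.93). The neuronal chemokine Cx3cl1, ligand of the microglial receptor Cx3cr1, was lower. It read 62.9, 49.6, 60.5 and 53.4 in subcutaneous tumours, 1123, 1174 and 1354 in forebrain and 333, 259 and 333 in hindbrain (log2 -3.41 ± 0.11). Ccl27a (log2 -3.25 ± 0.36) and Ccl25 (-0.85 ± 0.13) were the other lower chemokines.

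Of 21 cytokines tested, 18 were higher and 3 lower. Il1b, the main inflammatory cytokine of myeloid cells, read 226, 362, 1120 and 356, highest in replicate 3, and 2.4 to 6.83 (median 4.37) in brain (log2 6.37 ± 0.43). Il6 (8.76, 6.6, 43 and 22.4) and Osm (14.8, 11.3, 41.4 and 19.3) were likewise highest in replicate 3, against at most 0.209 and 0.432 in brain. Tgfb1 read 353, 449.7, 386 and 313 and 20.9 to 34.7 (median 25) (log2 3.80 ± 0.13, adjusted p = 1.71e-09), and its tumour-free means were 11.8 in forebrain and 10.9 in hindbrain. The 3 lower calls, Tgfb2 (-0.43 ± 0.18), Ctf1 (-0.74 ± 0.27) and Il34 (-0.42 ± 0.13), were small, with overlapping groups, and none held under all alternatives. That of Tgfb2 was lost when any 1 library other than subcutaneous replicate 3 or forebrain replicate 3 was left out (-0.28 to -0.47). That of Ctf1 was lost without forebrain replicate 1 (-0.66) or hindbrain replicate 1 or 3 (-0.74 and -0.73), and that of Il34 with the 2 regions fitted as 1 group (adjusted p = 0.402 in limma). Il34, a neuronal ligand of Csf1r, differed by region: 75.3, 78.5 and 84.4 in forebrain, 25, 22.4 and 22.9 in hindbrain and 31.1, 37.1, 24 and 38.7 in subcutaneous tumours.

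Growth factors divided evenly: of 34 tested, 15 were higher, 13 lower and 6 not called, with a median of -0.04. Over all genes tested 34.3% were higher and 46.0% lower. The 2 insulin-like growth factors went opposite ways. Igf1, made by fibroblasts and macrophages, read 154, 112, 96 and 147 in subcutaneous tumours and 8.47 to 10.6 (median 9.26) in brain (log2 3.60 ± 0.14, adjusted p = 3.32e-09). Igf2, made in the brain by meninges and choroid plexus, read 7.82, 11.7, 7.57 and 3.34 and 82.5 to 299.9 (median 151) (log2 -4.39 ± 0.32, adjusted p = 5.60e-07). In tumour-free brain Igf1 averaged 10.3 in forebrain and 13 in hindbrain, and Igf2 142 in forebrain and 259 in hindbrain. Higher as well were Figf (VEGF-D, 3.29 ± 0.17), Pros1 (a ligand of the TAM receptors that clear dying cells, 2.39 ± 0.11) and Hgf (1.18 ± 0.17), whose forebrain values of 5.78, 4.8 and 5.15 overlapped with the subcutaneous values of 6.74, 5.6, 10.8 and 5.71. Fgf1, a neuronal and glial factor, was lower: 25.5, 15.2, 18.4 and 25 against 349, 385 and 340.5 in forebrain and 962, 836 and 943 in hindbrain (log2 -4.73 ± 0.14). Fgf12 (-5.32 ± 0.14), which acts on sodium channels inside neurons, was lower too. Vegfa, the hypoxia-driven factor of vessel growth, read 113, 56.7, 171 and 75.7 in subcutaneous tumours and 93.1 to 153 (median 125) in brain and was not called (log2 -0.39 ± 0.27, 95% interval -0.99 to 0.22); without replicate 3 it was called lower, at -0.66.

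Of 32 genes of the BMP and Wnt list, 11 were higher, 14 lower and 7 not called. That is near the shares of all genes tested, 34.3% higher and 46.0% lower. The higher members that the naming rule picked were secreted inhibitors: Sfrp2 (468 ± 202 against 6 ± 2.21, log2 6.04 ± 0.22), Sfrp4 (4.20 ± 0.14) and the activin antagonist Fst (3.62 ± 0.17). Lower were the ligand Wnt7a, which neural cells supply to brain capillaries (0.97, 0, 1.44 and 0 against 49.6 to 132 (median 84), log2 -5.78 ± 0.25), and the inhibitors Nog (-2.09 ± 0.23) and Frzb (-2.02 ± 0.20).

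Markers of the tissue around each tumour were checked against the labels. Over all genes tested 34.3% were higher. Ckm, Krt14, Krtdap and Adipoq read below 1 in every brain library and passed the filter only through the subcutaneous libraries. Their direction was therefore fixed in advance. Subcutaneous libraries held skeletal muscle, with all 11 genes higher: Acta1 read 264, 506, 518 and 292, against 1.41 to 4.47 (median 2.78) in brain, and Ckm (creatine kinase) 127, 221, 187 and 157, against 0.0349 to 0.184 (median 0.0839). Muscle was present in all 4 libraries at sums of 1169 to 2268, against 5.71 to 7.97 in brain. Keratinocyte genes were higher in 8 of 8 tested, but only 3 of the 9 genes of the list stood above brain in all 4 libraries. Krt14, of the basal epidermis, read 487, 383, 0 and 445 in replicates 1 to 4 and at most 0.0881 in brain, and Krtdap 1241, 1315, 2.47 and 1617 and at most 0.563. Their log2 differences were 6.53 ± 1.62 and 8.15 ± 1.60, and without replicate 3 they were 8.72 and 10.31. Fat cell genes were higher in 7 of 8 tested; Adipoq (adiponectin) read 17.3, 14.5, 6.05 and 47.9, most in replicate 4, and at most 0.117 in brain. Erythroid genes were higher in 7 of 7, and Hbb-bs read 20402, 34389, 148220 and 14960 against 35 to 225 (median 99.9). Without replicate 3 its log2 difference was 7.99 in place of 8.68, and those of the other 3 named globins were 7.98 to 8.64. Schwann cell genes split, 3 higher and 3 lower; Sox10 (-4.43 ± 0.17) and Cdh19 (-2.71 ± 0.25), which oligodendrocytes or their precursors share, were lower. The part of skin, muscle, fat and nerve in the matrix, lipid and vessel genes above was not tested.

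**Figure D4:**
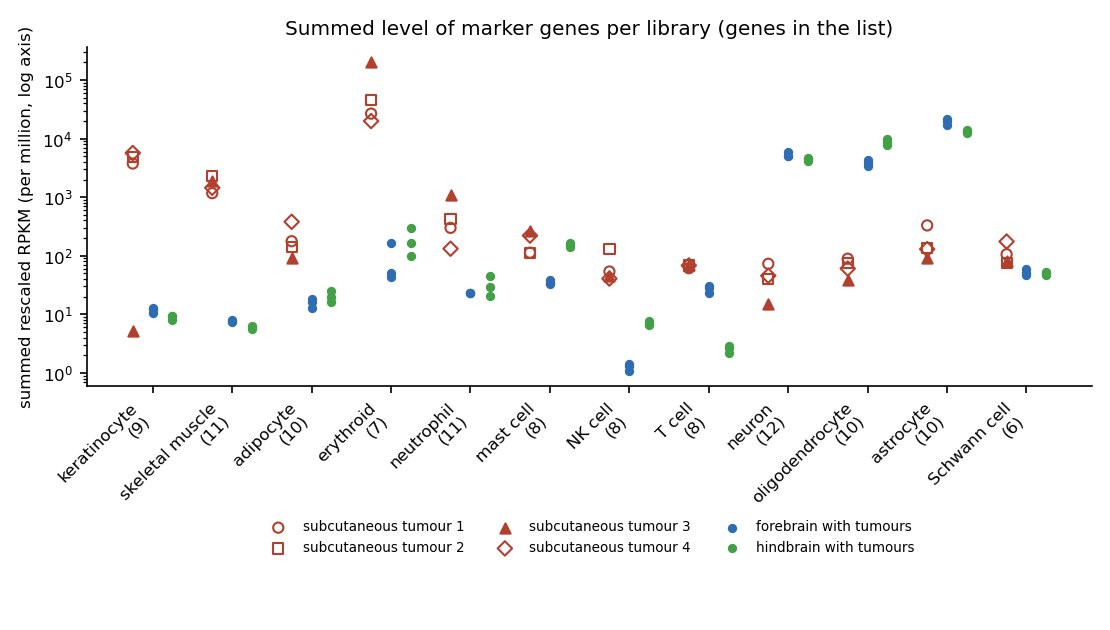
Summed rescaled RPKM (vertical axis, log scale) of 12 marker lists in each library, with the number of genes summed under each name; red symbols are the 4 subcutaneous tumours, told apart by shape, blue points forebrain and green points hindbrain with tumours. Subcutaneous replicate 3 has a keratinocyte sum of 5.2, within reach of brain, and the highest erythroid and neutrophil sums (198971 and 1108); replicate 1 has the highest neuronal sum of the 4 (73).

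Neuronal and glial RNA marked the brain libraries. All 6 neuronal, 7 astrocyte and 7 oligodendrocyte genes tested were lower in subcutaneous tumours, with medians of -6.29, -4.80 and -6.09. Stmn2, a neuronal protein of microtubules, read 3.61, 1.11, 1.57 and 1.5 in subcutaneous tumours and 252 to 444 (median 371) in brain (log2 -6.95 ± 0.19), and Nefl, a neurofilament, 1.02, 0.536, 0.252 and 0.172 and 116 to 359 (median 225). The myelin gene Mbp had means of 32.7 ± 8.07 and 2765 ± 1304 (log2 -6.25 ± 0.16). For astrocytes, Slc1a3 (a glutamate transporter, -6.20 ± 0.29), Aldoc (-6.74 ± 0.23) and S100b (-6.39 ± 0.30) were lower. Another 12 genes of these lists were left out of the test because human RNA could supply 10% or more of their few subcutaneous reads. Among these, Snap25 read 8.44, 2.42, 0.604 and 0.275 against 853 to 1187 (median 1031), and Gfap 3.1, 1.04, 3.44 and 0.223 against 529 to 1093 (median 839.8). Neuronal traces were uneven: the 12 neuronal genes summed to 73 in subcutaneous replicate 1 and to 14.9 to 45.7 in the other 3, against 4174 to 5914 in brain. Calb1, of cerebellar and cortical neurons, read 15.3, 1.64, 0 and 0 in subcutaneous tumours (log2 -7.40 ± 0.71, and -8.29 without replicate 1). Choroid plexus genes were lower in 7 of 7, but the brain libraries themselves varied: Ttr (transthyretin) read 1154, 11 and 19.2 in forebrain and 794, 1845 and 825 in hindbrain, against 8.98, 2.72, 1.05 and 0.477. Its log2 difference was -6.34 ± 1.19, and -5.31 without forebrain replicate 1 and -6.95 without forebrain replicate 2.

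Transcription factors that mark position along the body differed between the 3 tissues. HOX genes, whose order in their clusters follows the order of the body axis from hindbrain to tail, are silent in forebrain. Of 21 tested, 13 were higher in subcutaneous tumours than the mean of the 2 brain regions and 1 was lower. Over all genes tested 34.3% were higher and 46.0% lower. Another 13 HOX genes were too low to test. Hoxc8, Hoxc6 and Hoxd8, described below, passed the filter only through the subcutaneous libraries, so their direction was fixed in advance. Against hindbrain alone 9 were higher and 6 lower (31.1% and 45.3% of all genes). Against forebrain alone 20 were higher and 0 lower, but the direction of that count was fixed in advance. All 34 HOX genes together summed to at most 0.202 in any forebrain library, so a gene that passed the filter could not be lower than forebrain. Hoxc8 read 10.4, 8.26, 10.4 and 10.5 in subcutaneous tumours and had no read in any brain library, at least 984-fold higher with brain at a floor of 3 reads. Hoxc6 read 12.5, 12.8, 14.8 and 11.7 and at most 0.874 in brain, and Hoxd8 10.3, 8.93, 5.58 and 12.7 and at most 0.144. Genes of more forward positions were also read in hindbrain. Hoxb5 was 2.23-fold lower than the mean of the regions, but this joined opposite differences: it read 0.984, 0.903, 0.182 and 0.496 in subcutaneous tumours, 0.0104, 0 and 0 in forebrain and 9.34, 11.6 and 14.9 in hindbrain. The fit to recovered read counts turned the sign of its joint difference (1.48). Several genes that were not called against both regions together were called in opposite directions against each, such as Hoxa5 (1.49 against forebrain and -1.79 against hindbrain, adjusted p = 1.84e-04 and 4.68e-05 in limma) and Hoxc4 (1.47 and -1.40, adjusted p = 3.94e-05 and 5.83e-05). Both were chosen after their values were seen.

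**Figure D5:**
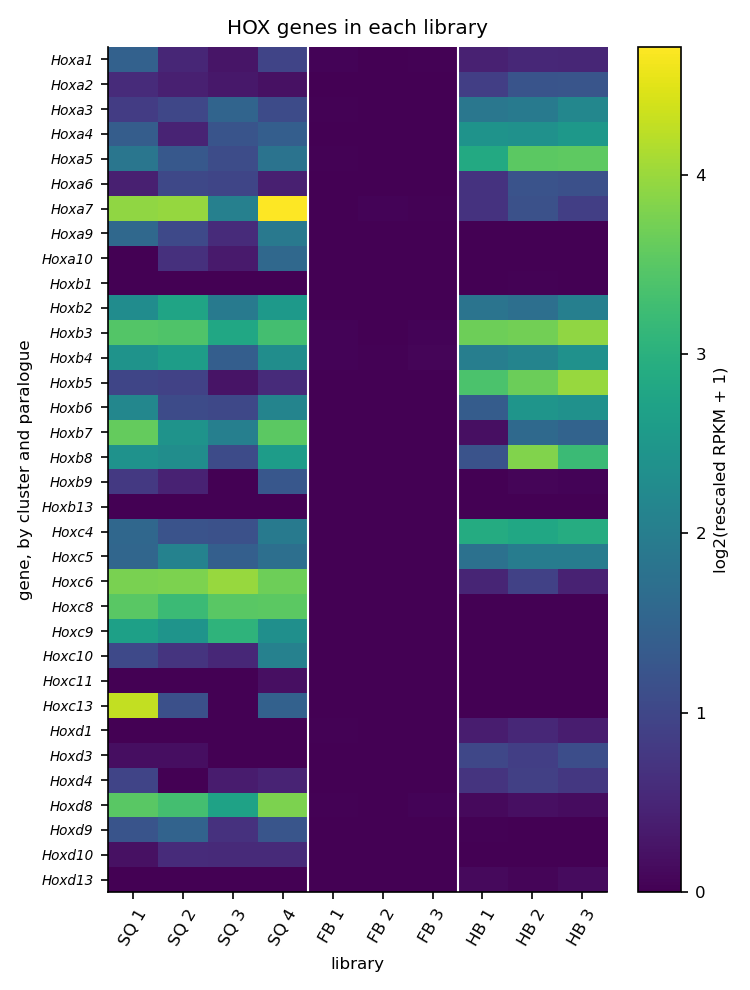
Level of 34 HOX genes (rows, ordered by cluster and position) in 10 libraries (columns), as log2(rescaled RPKM + 1) in colour; SQ is subcutaneous tumour, FB forebrain and HB hindbrain with tumours. Forebrain is dark throughout. Hindbrain lights up between Hoxa2 (itself too low to test) and Hoxa7, Hoxb2 and Hoxb8 and at Hoxc4 and Hoxc5. Subcutaneous tumours light up also at Hoxc6, Hoxc8, Hoxc9 and Hoxd8. Hoxc8 reads 8.26 to 10.5 in subcutaneous tumours and 0 in brain.

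Factors of the limb and trunk were higher in 8 of 13 tested and lower in 1, led by Tbx15 (79.4, 66.1, 67.2 and 93.9 against 1.07 to 3.17 (median 1.76), log2 4.74 ± 0.19), Meox1 (3.08 ± 0.14) and Meox2 (2.66 ± 0.20). Factors that mark brain regions were lower in 13 of 15 and higher in 1: Pax6 (-4.29 ± 0.19), Zic1 (-5.26 ± 0.27) and Zic2 (-4.79 ± 0.25) were lower. Zic1 averaged 25.4 in forebrain and 161 in hindbrain. Emx2, a forebrain factor that the trunk also uses, was not called: 6.38, 4.78, 2.16 and 8.46 in subcutaneous tumours, 9.06, 10.1 and 8.48 in forebrain and 1.31, 0.512 and 1.08 in hindbrain.

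The 2 brain regions were also set against subcutaneous tumours singly. Against forebrain alone 76.2% of genes were called and against hindbrain alone 76.4%; both comparisons use the same subcutaneous libraries. Some genes were called higher than one region and lower than the other: 74 lay above forebrain and below hindbrain (0.452%), and 45 the reverse (0.275%).

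Subcutaneous stroma held more RNA of dividing cells. All 16 proliferation genes were higher, 14 of them at least 4-fold. Mki67, which marks cells in cycle, read 43.9, 31.5, 29.5 and 41.3 in subcutaneous tumours and 1.86 to 4.17 (median 2.58) in brain with tumours (log2 3.30 ± 0.15, adjusted p = 9.74e-09), and tumour-free tissue held 0.646 in forebrain and 0.276 in hindbrain. Top2a had means of 153 ± 41.5 and 14.3 ± 5.01, and Cdk1 68.6 ± 11.7 and 4.21 ± 0.678. All 23 ribosomal protein genes were higher, with a median of 1.72, among them Rplp0 (2.74 ± 0.12). The 7 mitochondrially encoded genes tested were all lower, with a median of -1.87; mt-Nd2 read 1229, 1212, 693 and 757 against 4845 to 6556 (median 5495). Hypoxia-induced genes split, 7 higher, 4 lower and 5 not called of 16, where 34.3% of all genes tested were higher and 46.0% lower. Ldha, of lactate production, was 2.88-fold and Egln3, an oxygen sensor, 3.01-fold higher, and Ak4 was 3.93-fold lower. Car9 (-0.42 to 0.72), Pgk1 (-0.11 to 0.26) and Ndrg1 (-0.50 to 0.03) were not called, with these 95% intervals on the log2 scale.

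Genes often used as references in expression assays differed between the sites too. Of 14, 7 were higher, 5 lower and 2 not called, and over all genes tested 80.3% were called. Actb was 3.2-fold higher (4588 ± 432 against 1440 ± 188) and Gapdh 1.45-fold lower (681 ± 51.1 against 986 ± 90.8), while Sdha was 2.9-fold lower and Ywhaz 2.15-fold lower. Ppia (log2 0.21 ± 0.09) and Pgk1 (95% interval -0.11 to 0.26) were not called. Actb, Gapdh, Sdha and Ywhaz kept their call and direction under every scaling tried.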

How the data were processed

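Mouse host RNA was compared between 4 libraries of subcutaneous tumour and 6 of brain with tumours (3 of forebrain, 3 of hindbrain; animals not given). The authors deposited RPKM values per mouse gene; builds were mm10 (GRCm38) and hg38 (GRCh38), per the submitters' processing notes, and the aligner is not given in the sources used here. Values were rescaled to 1000000 per library. Genes of at least 1 in at least 3 libraries were tested on log2(value + 1) with limma 3.58.1 (trend, robust; R 4.3.3), with forebrain and hindbrain as separate groups. On simulated data, 93.8% of 97 genes changed 2-fold and 98.9% of 93 changed 4-fold were recovered, and 41 of 15024 unchanged genes were called, which made 18.3% of the simulated calls false. The simulation gave all genes 1 dispersion (0.00403) and changed few of them, whereas 80.3% of the real genes were called. Its rates therefore need not hold for the real calls. The members and gene lists were chosen with earlier results of these data known. Named genes were the 10 largest differences per direction without overlap (mean of at least 5), up to 3 per list and direction, fixed genes, and genes of a list that did not pass; Col2a1, Esm1, Hoxa5, Hoxc4 and the genes named in captions or as left out were chosen after their values were seen. A few genes that the rule names are not reported here. Depth, 2446513 to 86139353 mouse reads, was recovered from the steps of the RPKM values, whole to within 0.02 reads. Alternatives covered scaling, filters, pseudocount, human reads, recovered reads and left-out libraries.

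Replicate numbers in the labels did not pair subcutaneous with brain libraries (correlations of deviations from -0.02 to 0.03); forebrain and hindbrain of the same number deviated together (0.24 to 0.45).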

Additional observations from a re-analysis of the deposited data

Results flagged for a closer look

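In 26 of 233 named genes, 1 of the 4 subcutaneous libraries lay further from the others than Dixon's test allows. For independent, normally spread values the test flags about 1 group in 20. Here it was applied without a log scale, to genes that rise and fall together within a library. The count therefore cannot be set against that rate. Values are rescaled RPKM, with the range of the other 3 libraries after each.

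Replicate 3, the blood-rich library, supplied the most. It was highest for Hbb-bs at 148220 (14960 to 34389), Hbb-bt at 10359 (891 to 2209) and Hba-a2 at 7601 (1005 to 1857), the globin genes. It was also highest for the cytokine Il1b at 1120 (226 to 362), the interferon-stimulated gene Rsad2 at 139 (12.5 to 28.1), the endothelial genes Pecam1 at 82.8 (60.8 to 61.1) and Emcn at 37 (23.9 to 25.2), and Mmp17 at 4.1 (1.06 to 1.54). It was lowest for the smooth muscle gene Tagln at 109 (147 to 151) and for Ywhaz at 214 (299.9 to 309.6).

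Replicate 1 was highest for the neuronal genes Calb1 at 15.3 (0 to 1.64), Stmn3 at 4.31 (0 to 0.531), St8sia3 at 1.51 (0 in each of the others), Nptx1 at 1.49 (0.0817 to 0.174) and Zic1 at 2.15 (0.215 to 0.455), and for arginase, Arg1, at 195 (47.9 to 70.3). Replicate 2 was highest for the monocyte receptor Ccr2 at 400.3 (81.1 to 134), the natural killer genes Klrd1 at 33.1 (6.58 to 9.39) and Ncr1 at 17.8 (2.55 to 4.67), and P2ry12 at 15.8 (9.75 to 10.4). It was lowest for Col12a1 at 439 (565 to 578) and Hoxc8 at 8.26 (10.4 to 10.5). Replicate 4 was highest for matrix genes: Col1a1 at 35864 (17232 to 20008), Col1a2 at 6828 (3444 to 3963), Lum at 227 (103 to 115) and Col14a1 at 128 (79.8 to 87).

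The difference from subcutaneous tumours depended on the brain region, with opposite signs, for 2 named genes. Hoxb5 was 0.68 on the log2 scale against forebrain and -2.99 against hindbrain, 3.67 apart. Il34 was -1.27 against forebrain and 0.44 against hindbrain, -1.72 apart.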

How the results depend on the processing

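Of 230 named genes tested, 216 kept their call and direction under all 29 alternatives. The other 14 were Bnip3, Cldn5, Ctf1, Hoxb5, Ighm, Il34, Krt14, Slc2a1, Tgfb2, Timp3, Ttr, Vegfa, Vwf and Zbtb46. One reversed: Hoxb5 was -1.15 and came to 1.48 with voom on recovered reads (adjusted p = 0.0446), where the sign joins opposite differences from the 2 regions. Leaving out every gene whose value in cultured human cells was at least 0.1 times that of either side lowered the genes called from 13129 to 8242 against brain, from 12466 to 7771 against forebrain and from 12494 to 7771 against hindbrain, with fewer genes tested. Leaving out 1 library at a time gave 12712 to 13698, 11543 to 13263 and 11568 to 13183. With the replicate number as a block the counts were 12895, 12271 and 12261, and the block lost the calls of Ighm, Tgfb2 and Zbtb46. Averaging forebrain and hindbrain libraries of the same number gave 11921 against brain and lost those of Ctf1, Ighm, Tgfb2 and Vwf. The median difference of all genes was -0.23, and -0.12 with median of ratios, -0.07 with quantile normalization, 0.07 with voom and -0.13 without haemoglobin genes, a scaling chosen after seeing the data. Of 2958 counts per list and setting, 2847 stayed within 1.5 times the count reported. Of the rest, voom moved barrier genes lower to 7, microglia genes lower to 3 and HOX genes higher to 21. In that fit 6132 of all 16358 genes tested were lower and 6781 higher. Subcutaneous depth, at 2446513 to 3982107 mouse reads, limits low genes most.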
